A study of Mus musculus with 4 samples.

Results

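Transcripts of the cytochrome P450 (Cyp) family were measured in the livers of mouse fetuses at mid-gestation. The livers came from C57BL/6J dams that were fed, during gestation, either a control diet (CD; 4.3% of kcal from fat) or a high-fat diet (HFD; 60% of kcal from fat), with 2 arrays per diet and no other treatment or transgene. Total RNA was labeled with Cy3 and hybridized to an Agilent mouse array, 1 sample per array. The samples of a diet are called biological replicates, and the sources do not say whether fetuses of a diet shared a dam or livers were pooled, so p-values measure the spread between these samples only. Members were all genes whose RefSeq symbol is Cyp followed by a number, a letter and a number, except the bile acid and steroid genes Cyp7a1, Cyp8b1, Cyp27a1, Cyp11a1, Cyp11b1, Cyp17a1 and Cyp21a1 and the pseudogenes. Of 85 such genes in RefSeq, 83 were matched to a probe, out of 22909 genes with a named probe on the array, while Cyp2j12 and Cyp4a32 were not. The members had 102 probes, and the probe with the highest mean signal stood for each gene. A level below is a log2 intensity from which that array's 75th percentile was subtracted, so that it compares arrays for 1 probe and does not rank genes against each other.

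P450 enzymes are heme proteins that insert an oxygen atom into their substrate, with electrons passed on from NADPH by partner proteins. Families 1 to 3 are known mainly for handling drugs and other foreign compounds, and family 4 for the terminal hydroxylation of fatty acids. Single-gene subfamilies break down retinoic acid, activate vitamin D or modify sterols and steroid hormones. The adult liver is the main site of drug-metabolizing P450 enzymes. In the mid-gestation fetus it is still a blood-forming organ in which hepatoblasts are a part of the cells, and many hepatic P450 genes reach their adult levels only around or after birth.

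A check of the samples came before the results. The labels give the same gender, female, for all samples, without saying whether this is the dam or the fetus. The level of Xist, the transcript that coats the inactive X chromosome, was -8.29 in CD 1, -0.65 in CD 2, -6.84 in HFD 1 and -0.74 in HFD 2. The Y-linked transcripts Ddx3y, Eif2s3y, Kdm5d and Uty were well above background in CD 1 and HFD 1 and in neither of the other two. Each diet therefore held 1 array of either kind, and the replicate number follows this split. The markers of hepatoblasts and hepatocytes were all measured (10 of 10 well above background on 4 arrays), as were those of erythroid cells (8 of 8). In these bulk samples, fewer cells of a type and less RNA per cell cannot be told apart.

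A signal well above background on 4 arrays was found for 55 of the 83 members, on 1 to 3 arrays for 7 and on none for 21. Over all genes, 72.4% were well above background on 4 arrays. The subfamilies differed in this respect. Of 15 Cyp2c genes, known for the metabolism of drugs and of arachidonic acid, 12 were well above background on 4 arrays, as were 7 of 8 Cyp2d genes and 4 of 4 Cyp2a genes. The Cyp4a genes, which hydroxylate fatty acids and are classical targets of the receptor PPAR-alpha, were the other way round, with 1 of 4 on 4 arrays (Cyp4a31) and the brightest probe of the other 3 on none. For Cyp4a10, a dimmer probe was well above background on 2 arrays. The Cyp1a genes, inducible by aryl hydrocarbons, were near the scanner's floor. Cyp1a1 was well above background only in CD 2, and Cyp1a2 on no array. In Cyp3a, 3 of 7 genes were on 4 arrays, among them Cyp3a16, known as a fetal and neonatal form. Of the vitamin D and steroid enzymes, Cyp24a1, which inactivates vitamin D, Cyp19a1, the aromatase that makes estrogens, and Cyp11b2, the aldosterone synthase, were on none.

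**Figure D1:**
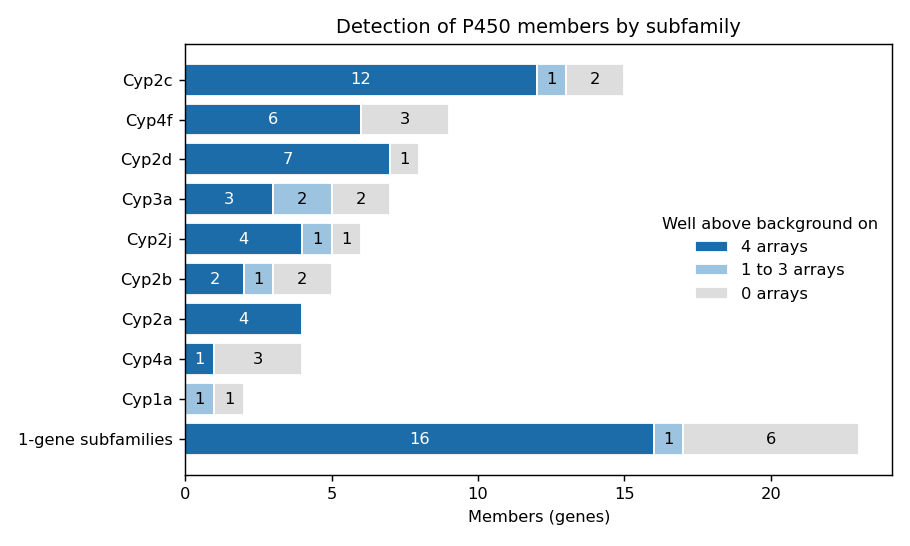
Number of P450 members in each subfamily (x axis, genes) whose brightest probe was well above background on 4 arrays, on 1 to 3 arrays or on none. Cyp2c (12 of 15), Cyp2d (7 of 8) and Cyp2a (4 of 4) were mostly measured on 4 arrays, and Cyp4a (1 of 4) and Cyp1a (0 of 2) were not.

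Detection followed neighborhoods only in part. Along the Cyp2c cluster on chromosome 19, the genes in the order Cyp2c55, Cyp2c65, Cyp2c66, Cyp2c29, Cyp2c39, Cyp2c38, Cyp2c67, Cyp2c68, Cyp2c40, Cyp2c69, Cyp2c37, Cyp2c54, Cyp2c50, Cyp2c70 and Cyp2c23 were on 4 arrays, except Cyp2c39 and Cyp2c54 on none and Cyp2c50 on 2. In the Cyp2d cluster on chromosome 15, the exception was Cyp2d34. Genes within these clusters are close copies of each other, and how much signal a probe takes up from a neighbor's transcript was not tested, so values of single Cyp2c, Cyp2d and Cyp3a genes are uncertain to that extent.

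The promoters of the Cyp2c genes next to each other show how alike these copies are, and are given here beside a second Cyp2c type, a Cyp2d gene and the fetal Cyp3a form. Each stretch holds the 150 bases before the annotated start, 5′ to 3′ on the gene's strand, from RefSeq on build GRCm38.p6. Capitals mark CAAAGTCC, letters of the kind bound by the hepatocyte factor HNF4, and TATAAA, the letters of a TATA box, on either strand. Both are marked wherever they stand, so a marked TATAAA need not be a working TATA box.
Cyp2c40: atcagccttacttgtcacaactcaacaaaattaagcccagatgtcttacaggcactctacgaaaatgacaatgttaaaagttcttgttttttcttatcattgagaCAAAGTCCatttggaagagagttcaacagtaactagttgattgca
Cyp2c69: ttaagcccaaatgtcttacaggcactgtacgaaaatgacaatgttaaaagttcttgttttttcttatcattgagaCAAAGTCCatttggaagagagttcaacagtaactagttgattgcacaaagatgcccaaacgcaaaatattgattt
Cyp2c67: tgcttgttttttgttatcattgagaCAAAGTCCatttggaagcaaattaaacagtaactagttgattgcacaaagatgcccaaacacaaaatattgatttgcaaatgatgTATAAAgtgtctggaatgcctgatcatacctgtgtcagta
Cyp2c68: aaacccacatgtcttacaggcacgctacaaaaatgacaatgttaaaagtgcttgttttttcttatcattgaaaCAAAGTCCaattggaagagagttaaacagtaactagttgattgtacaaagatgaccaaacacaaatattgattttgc
Cyp2c29: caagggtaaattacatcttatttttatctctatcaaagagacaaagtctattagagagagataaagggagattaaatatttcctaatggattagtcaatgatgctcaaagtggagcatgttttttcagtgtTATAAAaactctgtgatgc
Cyp2d26: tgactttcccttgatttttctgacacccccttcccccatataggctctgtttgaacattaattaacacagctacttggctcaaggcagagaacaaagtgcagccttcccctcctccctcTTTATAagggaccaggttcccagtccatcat
Cyp3a16: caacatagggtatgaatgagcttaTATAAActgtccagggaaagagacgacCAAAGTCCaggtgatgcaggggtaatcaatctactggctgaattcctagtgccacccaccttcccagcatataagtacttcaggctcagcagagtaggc
These lie at chr19:39812815-39812964 for Cyp2c40, chr19:39886770-39886919 for Cyp2c69, chr19:39649043-39649192 for Cyp2c67, chr19:39741102-39741251 for Cyp2c68, all on the minus strand, and chr19:39286935-39287084 for Cyp2c29 on the plus strand. Cyp2d26 is at chr15:82794246-82794395 and Cyp3a16 at chr5:145469724-145469873, both on the minus strand. The full windows, from 250 bases before to 50 bases after the start, were aligned end to end. Cyp2c69 and Cyp2c68 were identical in 277 of 304 alignment columns (91.1%), and Cyp2c40 and Cyp2c69 in 267 of 330 (80.9%). Columns with a gap count as not identical. Copies whose annotated starts are shifted therefore score lower, and these shares do not rank how alike the copies are. Cyp2c67 was at 66.6% with Cyp2c69, 65.9% with Cyp2c68 and 54.2% with Cyp2c40, the last over 380 columns because of the gaps. By the same alignment, Cyp2c40 reached 48% with Cyp2d26 and 48.7% with Cyp3a16. A block around CAAAGTCC stands at -45 to -38 in Cyp2c40, -75 to -68 in Cyp2c69, -77 to -70 in Cyp2c68 and -125 to -118 in Cyp2c67, counted from the first base before the start, so a like block stood at different distances from the annotated starts. TATAAA shifted with it, at bases 41 to 46 after the start in Cyp2c40, 11 to 16 after it in Cyp2c69 and -40 to -35 in Cyp2c67. The window of Cyp2c68 held no TATAAA.

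RefSeq windows were at hand for 67 of the 83 members, with 76 windows. CAAAGTCC, searched on both strands, was in 12 of the 76 windows, against 1.42% of all 32851 windows. The 12 genes were Cyp2a4, Cyp2a5, Cyp2c40, Cyp2c65, Cyp2c66, Cyp2c67, Cyp2c68, Cyp2c69, Cyp2c70, Cyp3a11, Cyp3a16 and Cyp4f18, and each was well above background on 4 arrays. So were the genes of 49 of the 76 windows. CAAAGTCC was in 7 of 14 Cyp2c windows and in 0 of 5 Cyp2d windows. A link between the motif and the signal was not tested. TATAAA was in 30 of the 76 windows and in 13.6% of all windows, and in Cyp2d it was in 5 of 5. The nuclear receptor motif AGGTCA was in 21 of the 76 windows and in 16.3% of all. TNGCGTG, the core bound by the aryl hydrocarbon receptor, was in 1 of them (Cyp2c68) and in 5.07% of all. No window of a member held CAAAGTCC and AGGTCA overlapping, and only 1 of all 32851 windows did, so this absence says nothing about the members. A match is a string of letters, and windows of gene copies share theirs by descent.

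No P450 member passed the cutoffs between the diets. Of 83 members, 63 passed the filter on dim probes and were tested, and 0 were higher and 0 lower in HFD at the cutoffs of a 2-fold difference and an unadjusted limma p of 0.05. Of all 41332 probes tested, 0.293% were past these cutoffs and higher, and 0.477% lower. By the p cutoff alone, limma called 0 members, as did the methods' t-test, against 3.35% of all probes. The smallest unadjusted p was 0.0756, for Cyp4f39, and the smallest adjusted p of a member was 1.000, so the differences below are given with limma's 95% intervals, all of which include 0. The fitted difference was above 0 for 36 members and below 0 for 27, and the median log2 difference was 0.04, the same as over the 18192 genes tested. The log2 differences ran from -0.96 (Cyp2f2) to 0.57 (Cyp4a31 and Cyp4b1).

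This is not a measure of equal expression. With 2 arrays per diet, an exact permutation test cannot go below a two-sided p of 0.333, and the 95% intervals of limma reached, in the median, 0.76 to either side of the estimate on the log2 scale. For 36 members the interval lay within 2-fold in either direction, and for 27 it reached 2-fold or more.

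**Figure D2:**
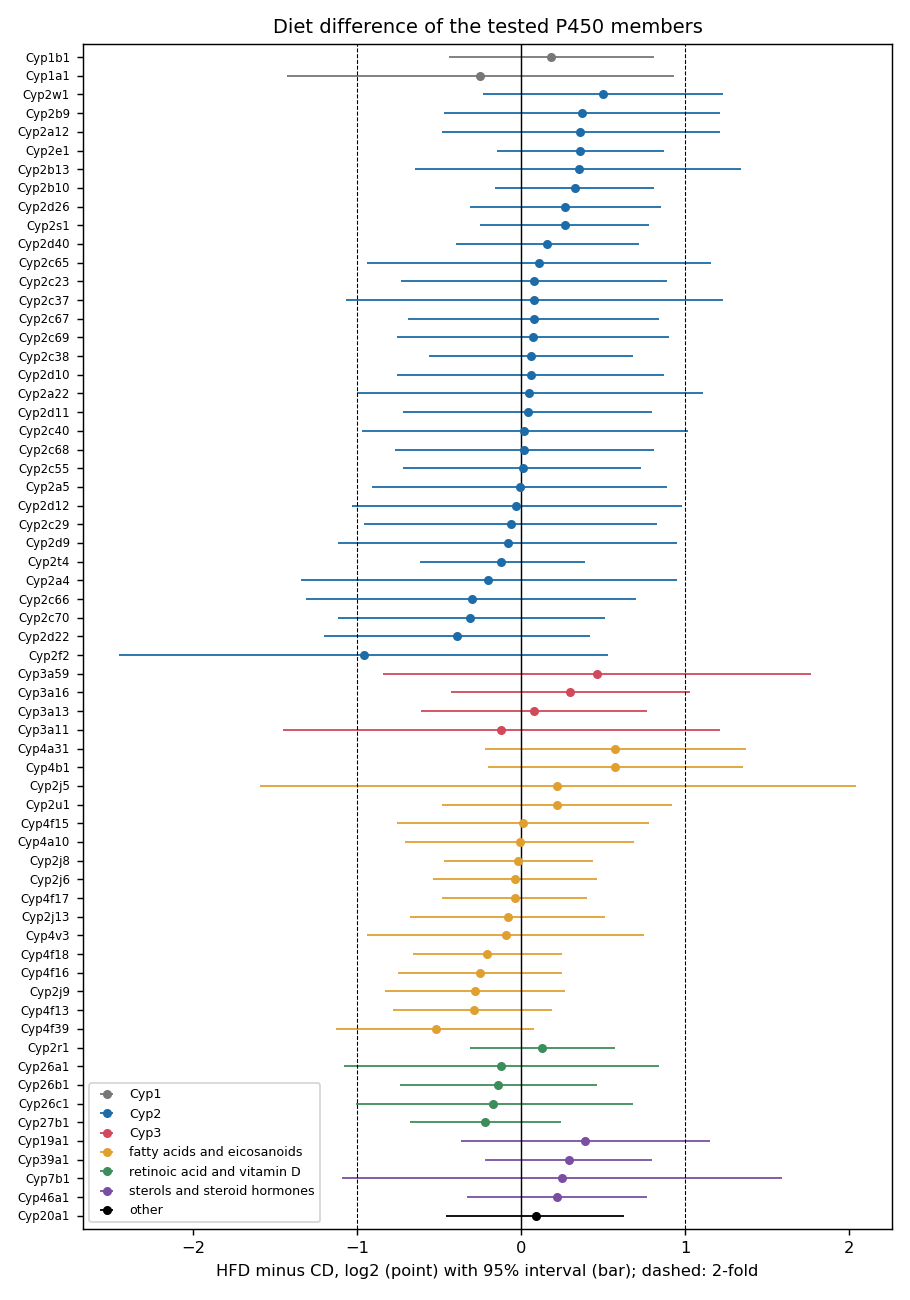
Difference between the diets (HFD minus CD, log2; points) with 95% intervals from limma (bars) for the 63 members tested, by role, with dashed lines at 2-fold. All intervals include 0, the lowest value is that of Cyp2f2 (-0.96) and the highest are those of Cyp4a31 and Cyp4b1 (0.57).

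The levels behind the largest differences showed how the arrays fell. Cyp2f2, which activates naphthalene and is abundant in airway club cells, had a level of -2.39 in CD 1, -2.64 in CD 2, -2.67 in HFD 1 and -4.27 in HFD 2. The HFD arrays were both lower than the CD arrays, but HFD 1 by a small margin, so that 1 array set the size of the difference. Its log2 difference was -0.96 (95% interval -2.45 to 0.53, limma, adjusted p = 1.000). With the replicate number as a block, the unadjusted limma p fell to 0.0221 (adjusted p = 1.000) at the same difference, which stayed under 2-fold. Without HFD 1 the difference was -1.76 and past both cutoffs (limma, adjusted p = 0.50), in a fit where the CD pair alone gives the spread, and without HFD 2 it was -0.16. Of 6 lung and airway markers, 4 were lower in HFD at an unadjusted limma p under 0.05, each with an adjusted p of 1.000. Over all probes, 3.35% were under this p in either direction. Among the 4, Sftpb and Nkx2-1 were well above background on 2 arrays only. Their HFD levels (-6.00 and -6.62, and -7.03 and -6.66) were under the lowest level called well above background there (-5.86 and -5.70). The lung surfactant gene Sftpc was at -1.67 and -0.31 in CD and at -3.68 and -3.38 in HFD, and the summed linear level of the list was 0.729 and 1.31 in CD and 0.465 and 0.422 in HFD. The 2 markers of the 6 that did not pass were Foxj1 of ciliated cells, with a difference of -0.06, and the club cell gene Scgb1a1. Scgb1a1 was at -4.86 and -5.53 in CD and at -4.71 and -4.82 in HFD (0.43). Sftpc was low in both HFD arrays alike, whereas Cyp2f2 was low in HFD 2 mainly, and the part of lung transcripts in the Cyp2f2 values was not tested.

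Cyp4b1 and Cyp4a31, fatty acid hydroxylases encoded on chromosome 4, were ordered alike across the arrays. Cyp4b1, known from lung and kidney, was at -2.01 and -2.55 in CD and at -1.96 and -1.45 in HFD, and its log2 difference was 0.57 (interval -0.20 to 1.35). Cyp4a31 was at -3.83 and -4.25 in CD and at -3.79 and -3.14 in HFD (0.57, interval -0.22 to 1.37). Both were lowest in CD 2 and highest in HFD 2, and HFD 1 exceeded CD 1 by only 0.05 and 0.04. With 1 array left out, the difference ran from 0.30 to 0.84 for Cyp4b1 and from 0.25 to 0.90 for Cyp4a31. Of the 8 genes of the fetal kidney list, 6 were well above background on 4 arrays, and Umod and Slc12a1 on none. The summed level of the list was 6.61 and 3.53 in CD and 6.94 and 6.90 in HFD. Its gene Cdh16 was at -1.57, -3.24, -0.87 and 0.26 in CD 1, CD 2, HFD 1 and HFD 2, while Pax2 ran otherwise, with its highest level in CD 2 and its lowest, -2.47, in HFD 1. The part of kidney transcripts in these levels was not tested.

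Of the other members that were higher in HFD in the fit, Cyp2w1, known from the fetal gut, was at -3.03 and -3.71 in CD and at -2.89 and -2.84 in HFD (0.50, interval -0.23 to 1.23). Its difference was 0.84 without CD 1, 0.16 without CD 2 and 0.21 as the mean over its probes. Cyp2e1, the ethanol-oxidizing P450 that is abundant in adult liver, was at -3.94 and -3.65 in CD and at -3.51 and -3.36 in HFD (0.36, interval -0.15 to 0.87). In both genes the groups did not overlap. Cyp2b9 and Cyp2a12, with differences of 0.37 (interval -0.47 to 1.21) and 0.36 (interval -0.48 to 1.21), overlapped between the diets. Among those lower in HFD, Cyp4f39, which makes skin lipids by hydroxylating very long fatty acids, was near the limit of detection at -5.40 and -4.91 in CD and -5.69 and -5.66 in HFD (-0.52, interval -1.13 to 0.08, and -0.77 to -0.28 with 1 array left out). Cyp4f13, of a subfamily that inactivates leukotrienes, was at -1.70 and -1.41 in CD and at -1.85 and -1.84 in HFD (-0.29, interval -0.78 to 0.19). Cyp2d22 (-0.39, interval -1.20 to 0.42) was lower in both HFD arrays than in CD 2, and CD 1 (-3.32) lay between HFD 1 (-3.23) and HFD 2 (-3.41). Cyp2c70, which makes the muricholic acids of mouse bile, was at -0.05 and 0.68 in CD and at -0.15 and 0.16 in HFD (-0.31, interval -1.12 to 0.51).

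Groups without overlap were counted against all genes. Among the 55 members well above background on 4 arrays, 9 had both HFD arrays above both CD arrays, and 7 had both below. The shares over all 16595 such genes were 23.4% and 9.56%. In Cyp4f, 4 of the 6 genes on 4 arrays had both HFD arrays below both CD arrays by the brightest probe, namely Cyp4f39, Cyp4f13, Cyp4f16 and Cyp4f18. The log2 differences of the 6 ran from -0.52 to 0.01. Second, dimmer probes overlapped between the diets. That of Cyp4f16 was at -5.28 and -4.86 in CD and at -4.98 and -5.25 in HFD. That of Cyp4f18 was at -5.04 and -3.96 in CD and at -4.48 and -4.86 in HFD.

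By role, the 2 Cyp1 genes that were tested were Cyp1a1 (-0.25, interval -1.43 to 0.93) and Cyp1b1 (0.18, interval -0.44 to 0.81). Cyp1b1, which hydroxylates estrogens outside the liver as well, was at -1.23 and -1.74 in CD and at -1.26 and -1.35 in HFD. The Cyp26 genes above background, 2 of 3, did not pass the test. The level of Cyp26a1, which breaks down retinoic acid, was -3.41 and -3.34 in CD and -3.01 and -3.99 in HFD (-0.12, interval -1.08 to 0.84), so the HFD arrays lay on either side of the CD arrays. Cyp26b1, with the same reaction, was at 0.47 and 0.03 in CD and at 0.21 and 0.02 in HFD (-0.14, interval -0.74 to 0.46). Cyp26c1 was well above background on no array.

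Cyp2r1, which makes the circulating form of vitamin D, was at -0.84 and -0.72 in CD and at -0.69 and -0.61 in HFD (0.13, interval -0.31 to 0.57). Cyp27b1, which makes the active hormone, was at -5.17 and -5.39 in CD and at -5.52 and -5.49 in HFD (-0.22, interval -0.68 to 0.24). All 4 tested genes of sterols and steroid hormones had positive differences, from 0.22 to 0.39, with 0 at p under 0.05. These included Cyp39a1, an oxysterol hydroxylase, at 0.80 and 0.47 in CD and at 0.93 and 0.92 in HFD (0.29, interval -0.22 to 0.80), and Cyp46a1, which turns cholesterol over in the brain (0.22, interval -0.33 to 0.77). Cyp19a1 (0.39, interval -0.37 to 1.15) was well above background on no array, and its difference turned to -0.02 with normexp background correction.

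A further contrast within the family was that between the CD arrays. Over the 55 members on 4 arrays, the median absolute log2 difference between CD 2 and CD 1 was 0.52, between HFD 2 and HFD 1 it was 0.14, and between the diet means it was 0.13. Over all 16595 genes on 4 arrays these medians were 0.30, 0.09 and 0.13. In 42 of the 55 members the CD arrays differed by more than the diet means did, beside 72.7% of all genes. A difference between single arrays spreads more than a difference between means of 2 arrays, also without any effect, so these 2 measures are not alike. There is 1 array on each side of the contrast between CD 2 and CD 1, so it has no test. CD 2 was also the dimmest array, with a 75th percentile of 9.46 on the log2 scale. That of CD 1 was 10.07, of HFD 1 9.92 and of HFD 2 9.83, and levels are relative to these. Before this scaling, Cyp2c29 had an intensity of 5230 in CD 1 and 6380 in CD 2, and Cyp2d26 9100 and 8160. The part of array brightness in the contrast was not tested.

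This contrast was found in most Cyp2c and Cyp2d genes. Of their 19 members on 4 arrays, 16 were higher in CD 2 than in CD 1, with a median log2 difference of 0.75, against 56.3% of all 16595 genes and a median of 0.07. In the same 19 genes the median difference between the diets was 0.04. Cyp2c29, a major Cyp2c form of adult liver, was at 2.28 in CD 1, 3.18 in CD 2, 2.71 in HFD 1 and 2.62 in HFD 2. Cyp2d10 was at 2.23, 3.02, 2.71 and 2.65 on the same arrays, and Cyp2c40 at 1.24, 2.23, 1.87 and 1.65. The HFD arrays in each lay between the CD arrays, close to each other. Cyp2c68 (1.99, 2.74, 2.44 and 2.32), Cyp2d11 (1.94, 2.66, 2.31 and 2.36), Cyp2c69 (1.22, 2.02, 1.74 and 1.64), Cyp2c67 (0.98, 1.69, 1.46 and 1.36) and Cyp2c23, an epoxygenase of arachidonic acid (1.25, 2.00, 1.82 and 1.60), had the same order of CD 1 lowest and CD 2 highest. Cyp2d26 was at 3.08, 3.53, 3.60 and 3.56, with the HFD arrays level with CD 2, while a second, dimmer probe of it gave 0.32, 1.35, 0.84 and 0.75. The HFD arrays lay between a lower CD 1 and a higher CD 2 in 13 of the 19 genes, in 20 of all 55 members and in 24.7% of all genes on 4 arrays. The reverse, between a lower CD 2 and a higher CD 1, was found in 4 of 55 members and 16.9% of all genes.

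**Figure D3:**
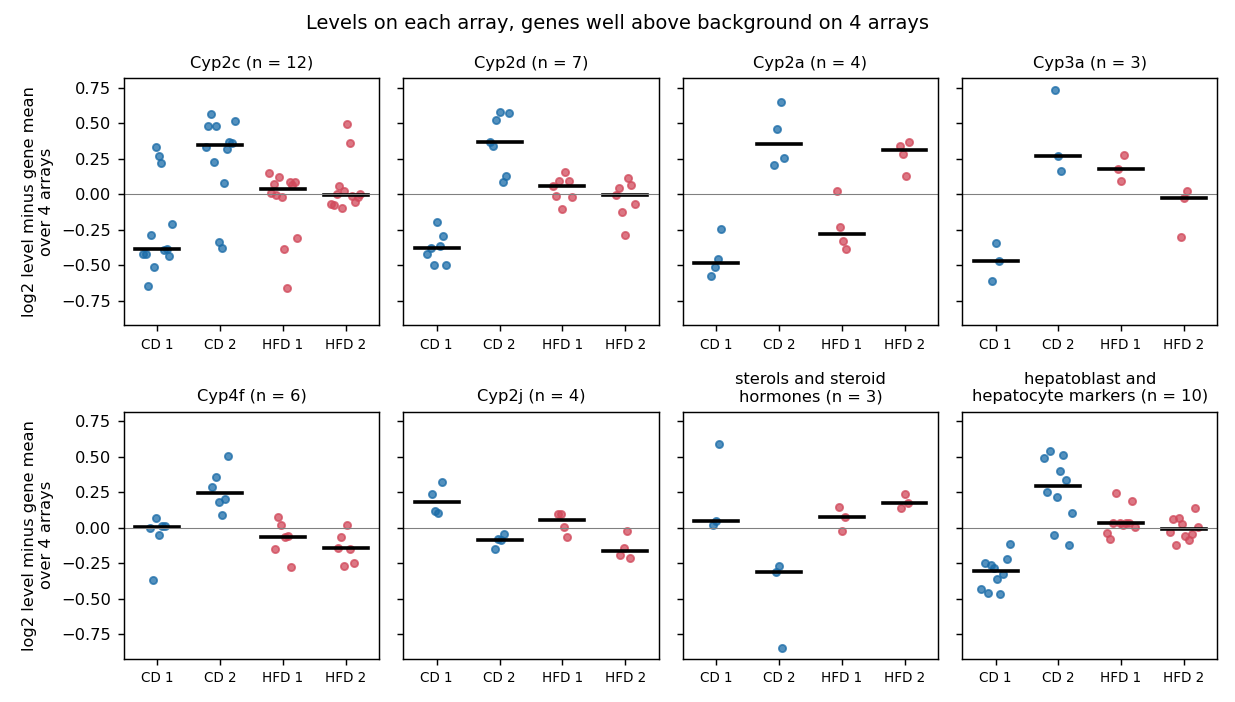
Level of each gene on each array minus its mean over 4 arrays (y axis, log2), for genes well above background on 4 arrays; points are genes, black lines are medians, CD in blue and HFD in red. The median of the 12 Cyp2c genes was -0.39 in CD 1 and 0.35 in CD 2, and that of the 10 hepatoblast and hepatocyte markers was -0.30 and 0.30, while both HFD medians of these sets lay within 0.04 of 0.

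Other hepatic subfamilies differed between the CD arrays in the same direction. The 4 Cyp2a genes, which act on coumarin and steroids, were higher in CD 2 by a median of 0.87, and the 3 Cyp3a genes on 4 arrays by 0.63. Cyp3a11, the main adult Cyp3a form, was at -4.33 in CD 1, -2.98 in CD 2, -3.54 in HFD 1 and -4.02 in HFD 2, the largest positive difference between the CD arrays among the 55 members (1.35). Cyp3a16 was at -2.12, -1.49, -1.38 and -1.63. In Cyp2a the HFD arrays were also apart, by a median of 0.48 with HFD 2 the higher. Cyp2a4, for example, was at -3.28 and -2.17 in CD and at -3.15 and -2.69 in HFD.

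The opposite direction was seen in Cyp2j and in the genes of sterols. All 4 Cyp2j genes on 4 arrays, epoxygenases found in many tissues, were lower in CD 2, with a median log2 difference of -0.28, although with normexp background correction 2 of the 4 were higher. All 3 sterol genes on 4 arrays were lower in CD 2, with a median of -0.33. Cyp7b1, an oxysterol hydroxylase on the side pathway to bile acids, was at -0.28 in CD 1, -1.71 in CD 2, -0.79 in HFD 1 and -0.69 in HFD 2. Its second probe gave -2.67, -3.67, -3.22 and -2.85. Both probes were lowest in CD 2 and highest in CD 1, with the HFD arrays between, and the log2 difference between the diets was 0.25 (interval -1.09 to 1.59) for the brighter one.

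Within the Cyp2c cluster, the 3 genes that were lower in CD 2 were Cyp2c55, Cyp2c65 and Cyp2c66, the first 3 in the order along chromosome 19 and forms known from the intestine. Cyp2c65 was at -2.44 in CD 1, -3.09 in CD 2, -3.10 in HFD 1 and -2.22 in HFD 2, and Cyp2c66 at -3.05, -3.19, -3.93 and -2.91. Under quantile normalization or normexp background correction, 2 of the 12 Cyp2c genes were lower in CD 2. The levels of Cyp2c65 and Cyp2c66 were highest in CD 1 and HFD 2 and did not separate the diets (0.11, interval -0.94 to 1.16, and -0.30, interval -1.31 to 0.70). The list of gut, stomach and pancreas markers had a summed level of 15.6 in CD 1, 11.3 in CD 2, 11.1 in HFD 1 and 15.7 in HFD 2. Much of this sum came from the pancreatic gene Cpa1 (3.20, 2.19, 1.84 and 2.83), while the intestinal gene Fabp2 was lowest in CD 1 (1.76, 2.17, 2.37 and 2.39). Its part in the levels of these genes was not tested. The windows of Cyp2c65 and Cyp2c66 hold CAAAGTCC, as do those of Cyp2c40 and Cyp2c69, which were higher in CD 2. Cyp2c66 differed by only -0.14 between the CD arrays, and a link between the motif and these levels was not tested.

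The markers of hepatoblasts and hepatocytes moved with the Cyp2c and Cyp2d genes. Their summed linear level was 1570 in CD 1, 2450 in CD 2, 1940 in HFD 1 and 1940 in HFD 2, and all 10 markers were higher in CD 2 than in CD 1, by a median of 0.58, with Alb at 8.14, 9.06, 8.53 and 8.54. With quantile normalization the median of the markers was 0.14 and that of the Cyp2c and Cyp2d genes 0.68, and with normexp background correction they were 0.56 and 0.72. The split in Xist ran the same way in the HFD arrays, and there the median difference of the Cyp2c and Cyp2d genes between HFD 2 and HFD 1 was -0.06. The part of either in the spread of the CD arrays was not tested.

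**Figure D4:**
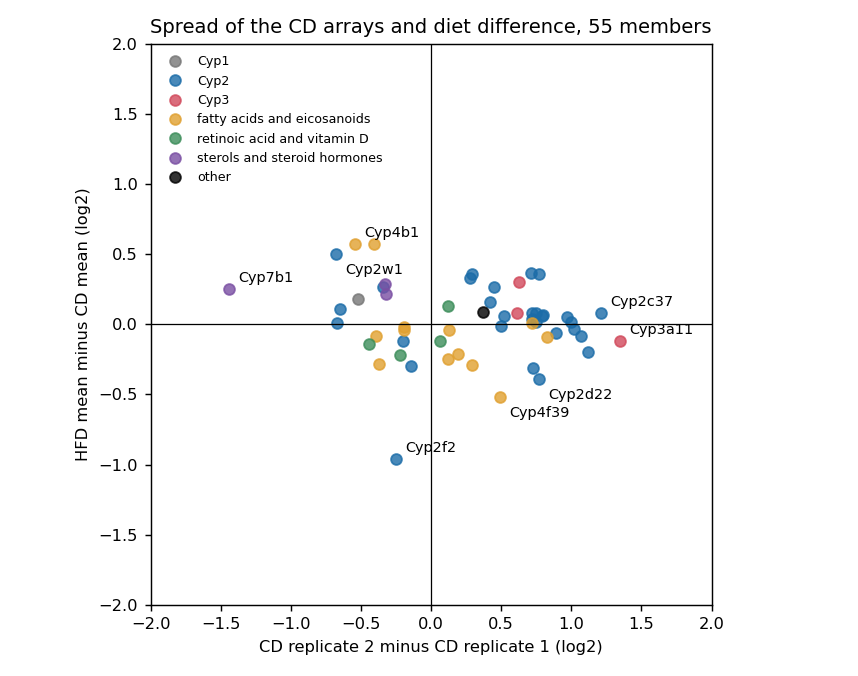
Difference between the CD arrays (x axis, CD 2 minus CD 1, log2) and between the diet means (y axis, HFD minus CD, log2) for the 55 members well above background on 4 arrays, colored by role. Points spread along x from -1.44 (Cyp7b1) to 1.35 (Cyp3a11) and along y from -0.96 (Cyp2f2) to 0.57 (Cyp4b1).

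With this spread, the direction of the diet difference depended on which arrays were set against each other. Between the arrays numbered 1, the Cyp2c and Cyp2d genes on 4 arrays were higher in HFD by a median of 0.46, and between those numbered 2 the median was -0.38. Of all 55 members, 24 were higher in HFD in the first comparison and lower in the second, 8 the reverse, 10 higher in both and 13 lower in both. Cyp2e1 was higher in both (0.43 and 0.29) and Cyp4f39 lower in both (-0.29 and -0.75), while Cyp7b1 was lower in the first (-0.52) and higher in the second (1.02). Each such comparison has 1 array per diet and no test.

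The proteins that serve P450 enzymes and the factors that control their genes were looked at in the same fit, from lists written for this purpose. All 9 genes of electron donors and heme supply were well above background on 4 arrays, and 0 of 9 passed the p cutoff of 0.05 in either direction, with a median log2 difference of 0.04. Por, the reductase that passes electrons to the microsomal P450 enzymes, was at 3.36 and 3.75 in CD and at 3.42 and 3.39 in HFD (-0.15, interval -0.69 to 0.39). Cyb5a, the cytochrome b5 of the same membrane, was at 5.96 and 5.97 in CD and at 6.22 and 6.24 in HFD (0.27, interval -0.15 to 0.69). The HFD arrays of Cyb5a were both above the CD arrays and within 0.02 of each other, without passing the test. Hmox1, which degrades heme, had both HFD arrays higher as well, at 4.62 and 4.73 against 4.14 and 4.39 (0.41, interval -0.08 to 0.89). Alas1, the first enzyme of heme synthesis in liver, overlapped between the diets (0.14, interval -0.38 to 0.66). Fdxr, Cyb5b, Cyb5r3 and Pgrmc1 had differences from -0.04 to 0.04. Fdx1, the electron carrier of the mitochondrial P450 enzymes, was at 3.29 and 3.15 in CD and at 3.34 and 3.99 in HFD (0.44, interval -0.28 to 1.16). HFD 2 stood above the other arrays in Fdx1, as it did in the summed level of the adrenal and gonad list (13.5 and 10.3 in CD, 15.4 and 26.3 in HFD), whose part in Fdx1 was not tested.

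Of the 9 regulators, all were well above background on 4 arrays and 0 of 9 passed p under 0.05 in either direction (median log2 difference 0.09). Ahr, the aryl hydrocarbon receptor, was at 1.01 and 0.67 in CD and at 0.78 and 0.95 in HFD (0.03, interval -0.51 to 0.56), beside Cyp1a1 near the floor. Nr1i2, the xenobiotic receptor PXR that drives Cyp3a11, was at -0.67 and 0.07 in CD and at -0.15 and -0.28 in HFD (0.09, interval -0.70 to 0.87), with the order of CD 1 lowest and CD 2 highest that 13 of the 19 Cyp2c and Cyp2d genes had. Nr1i3, the receptor CAR that drives Cyp2b10, had CD 2 lowest instead, at -3.38 and -3.74 in CD and -3.23 and -3.43 in HFD (0.23, interval -0.32 to 0.79). The level of Hnf4a was 3.91 and 4.01 in CD and 4.32 and 4.27 in HFD (0.34, interval -0.09 to 0.77), in limma the regulator with the smallest unadjusted p (0.0959). Both HFD arrays of Hnf4a were above the CD arrays, and CD 2 exceeded CD 1 by 0.10 only. Ppara, the fatty acid receptor, overlapped between the diets (0.09, interval -0.45 to 0.63). Arnt, the partner of Ahr, was at 2.22 and 2.01 in CD and at 2.29 and 2.26 in HFD (0.16), and Cebpa, a factor of hepatocyte differentiation, at 0.98 and 1.09 against 1.36 and 1.11 (0.19). Rxra, the partner of PXR and CAR, and Ahrr, the repressor of Ahr, had differences of 0.06 and -0.08. Cyp2b10 itself was near the limit of detection, at -5.35 and -5.08 in CD and at -4.86 and -4.92 in HFD (0.33, interval -0.16 to 0.81). Both HFD arrays were higher, as in 23.4% of all genes on 4 arrays. Its second probe was well above background on no array, with a difference of 0.01.

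**Figure D5:**
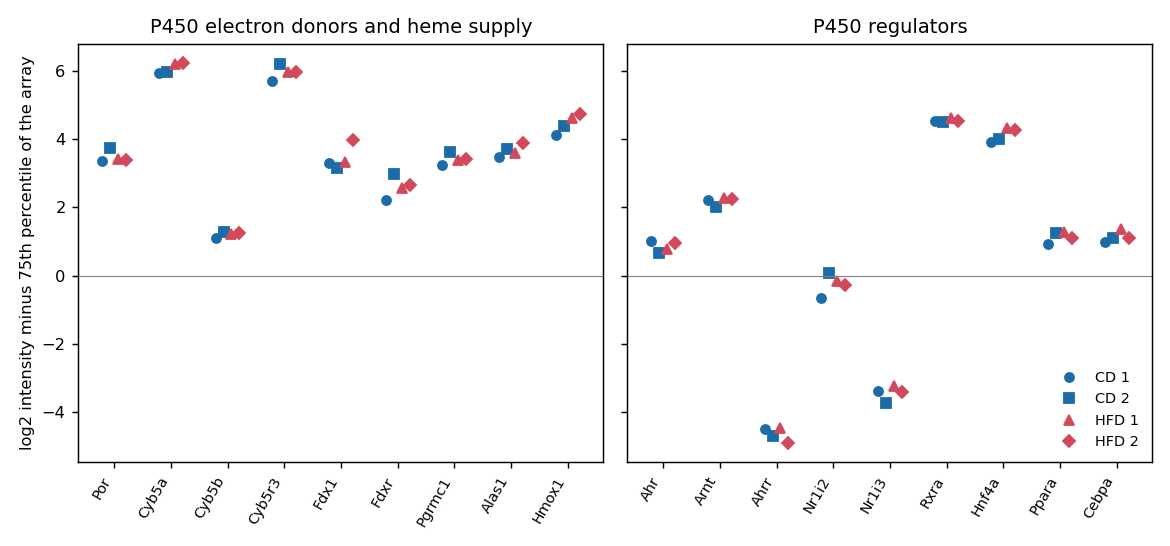
Level of each gene of the electron donor and heme supply list (left) and of the regulator list (right) on each array (y axis, scaled log2 intensity), CD in blue and HFD in red. In Cyb5a, Hmox1, Hnf4a, Arnt and Cebpa, among others, both HFD arrays lie above both CD arrays, as in 23.4% of all genes on 4 arrays. The margin is small in Arnt (HFD 2 at 2.26, CD 1 at 2.22) and Cebpa (HFD 2 at 1.11, CD 2 at 1.09). In Por and Nr1i2, CD 2 is the highest array.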

How the data were processed

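Gene expression was measured in fetal livers with 2 arrays for CD-fed and 2 for HFD-fed dams, grouped and numbered by the sample labels. The authors read the arrays with Agilent Feature Extraction 11.0.1.1 (per the labels) and deposited, for each of 62976 spots, a processed intensity that was background-subtracted but not scaled between arrays, with the median brightness of spot and background. Flags for outliers and for a signal well above background came with the deposited spots as scores, 0 or 1. A table by the authors with a normalized signal of 41471 probes was the intensity divided by 1 constant per array (within 0.1% for 100% of the probes with 1 spot). That table, with column medians of 0.305, 0.276, 0.286 and 0.293, was used as an alternative only.

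From the intensities the log2 was taken, spots of a probe were averaged without outlier spots, and the 75th percentile of each array was subtracted. Of 56605 probes, those under the 20th percentile on any array, or with a CV over 50% in both groups, were left out, which left 41332. The percentile and the CV filter follow the authors' methods, with the CV taken on the linear scale. The diet difference (HFD minus CD, no covariates) was fitted over all probes in R 4.3.3 with limma 3.58.1. Cutoffs were a difference of 2-fold together with an unadjusted p of 0.05, with Benjamini-Hochberg adjusted values beside them. All arrays were on 1 slide with 1 scan, so neither could be a block. From 65.4% to 70.0% of the spots' signals were well above background, and 0 spots were saturated. The number of arrays limits the precision.

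Probes were named by matching transcripts to RefSeq genes (GRCm38.p6). In this way 32994 probes had 1 symbol, 0 had several and 23611 had none, and no coordinates of probes are given because the array was designed on another build. For 6 members with 2 or more probes on 4 arrays, the diet difference of the probes was within 0.3 in 5, with a largest gap of 0.31. Promoter windows came from RefSeq on the same build, and protein and probe sequences were not used here. Values were prepared with Python 3.11.15, numpy 2.4.6 and pandas 2.3.3 and plotted with matplotlib 3.10.9, and the fit was tested on simulated data.

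The members, the lists and the motifs were chosen with earlier results of these data known. The genes named were the 6 largest rises and falls among members well above background in the higher group, the 10 with the highest mean, a list of hormone, vitamin and inducible forms, and all genes of both partner lists that are described. Others (Cyp2a4, Cyp2b10, Cyp2c55, Cyp2c65, Cyp4f16, Cyp4f18, Cyp39a1, Cyp46a1, the single markers and those of the closing section) were named after their values were seen. The regulator list is given without a gene that is not reported here. Marker lists of 8 cell types were written by hand. As alternatives, the analysis was rerun with quantile normalization, normexp with an offset of 50 on the median brightness, the deposited table, other filters, the mean over the probes of a gene, a wider rule for members, the replicate number as a block, the methods' t-test and leaving out each array.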

Additional observations from a re-analysis of the deposited data

How the results depend on the processing

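The counts of members past both cutoffs, 0 higher and 0 lower, were unchanged under quantile normalization, normexp background correction, the deposited table, the filter on probes well above background, no CV filter, the mean over probes, the wider rule for members, the methods' t-test and the replicate block. With no filter on dim probes, 1 member was higher (Cyp2j11, log2 difference 1.01, limma, adjusted p = 1.000), and it was well above background on no array. Leaving out 1 array gave 0 to 2 higher and 0 to 1 lower. The 2 higher, without CD replicate 2, were Cyp2j5 (1.22) and Cyp3a59 (1.12), each well above background on 1 array, and the 1 lower, without HFD replicate 1, was Cyp2f2 (-1.76, and -0.16 without HFD replicate 2). At p under 0.05 alone, limma then called 16 members without CD replicate 1 and 20 without CD replicate 2, beside 20.8% and 14.8% of all probes. In these fits the lone CD sample is assumed to vary like the HFD arrays, whose pair alone gives the spread (median absolute difference 0.09 over all genes on 4 arrays, against 0.30 for the CD pair). The median over members ran from -0.19 to 0.31 with 1 array left out (-0.19 without CD replicate 1, 0.31 without CD replicate 2) and from -0.02 to 0.05 otherwise.

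The labels do not say that replicate numbers pair the samples, and the deviations of CD 1 and HFD 1 correlated at -0.1 over probes. With the replicate block, 1 member had p under 0.05 (Cyp2f2) and 0 passed both cutoffs. Over all probes the block gave 177 higher and 258 lower, against 121 and 197. Other counts over all probes were 11 and 22 with normexp, 373 and 478 with no filter, 41 and 56 with the methods' t-test, 72 higher with the filter on probes well above background, and 190 to 843 higher and 383 to 466 lower with 1 array left out. The cause was not tested.

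Of the 33 named members, differences changed sign under quantile normalization in Cyp2c68 (-0.02), Cyp2d11 (-0.00279) and Cyp2c40 (-0.00926), with the mean over probes in Cyp2c23 (-0.06), and with normexp in Cyp19a1 (-0.02). Normexp also brought the largest rises and falls nearer to 0. Cyp4f39 went from -0.52 to -0.14, Cyp2b9 from 0.37 to 0.08, Cyp4a31 from 0.57 to 0.26, Cyp2w1 from 0.50 to 0.27 and Cyp2f2 from -0.96 to -0.55. The change was small in Cyp4f13 (-0.29 to -0.27) and Cyp2c70 (-0.31 to -0.29). With 1 array left out, the range crossed 0 for Cyp2a12 (-0.02 to 0.75), Cyp2c70 (-0.67 to 0.06), Cyp2c66 (-0.82 to 0.21), Cyp2c29 (-0.51 to 0.38), Cyp2d10 (-0.34 to 0.45), Cyp2c68 (-0.36 to 0.40), Cyp2d11 (-0.32 to 0.40), Cyp2c40 (-0.48 to 0.52), Cyp2c23 (-0.29 to 0.46), Cyp2c69 (-0.33 to 0.47), Cyp2c67 (-0.28 to 0.44), Cyp1a1 (-0.88 to 0.37), Cyp1b1 (-0.08 to 0.44), Cyp7b1 (-0.47 to 0.97), Cyp3a11 (-0.80 to 0.55), Cyp3a16 (-0.01 to 0.61), Cyp26a1 (-0.61 to 0.37), Cyp26b1 (-0.36 to 0.08) and Cyp26c1 (-0.53 to 0.19). It stayed on 1 side of 0 but moved by over 1.5 times for others, such as Cyp2d22 (-0.77 to -0.01). The median CD 2 minus CD 1 of the Cyp2c and Cyp2d genes was 0.68 to 0.75 under alternatives chosen after seeing the data. Members near the scanner's floor had levels too dim to show a difference.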

Other observations

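Markers of other tissues were present in all samples at levels that differed between arrays. The 9 trophoblast genes with a probe had a median log2 difference of -0.92 between the diets. Tpbpa, a marker of the spongiotrophoblast, was at 3.01 and 4.80 in CD and at 1.00 and -1.01 in HFD, and the difference of Prl3b1, a placental lactogen, was -3.80, with both HFD arrays below both CD arrays. Psg21 was at -1.19 and 0.80 in CD and at -3.58 and -4.81 in HFD. These 3 genes were left out of the fit by the filters and have no test. Gcm1 was at 5.65 and 4.28 in CD and at 5.43 and 5.60 in HFD. The summed linear level of the brain and neuron list was 26.3 and 19.2 in CD and 14.1 and 19.3 in HFD. The erythroid list was at 835 and 673 in CD and at 910 and 1100 in HFD.

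A wider rule for symbols, which admits a letter at the end, added Cyp4a12b, a kidney and liver fatty acid hydroxylase, with a log2 difference of 0.83 (limma, adjusted p = 1.000). Cyp2c50, which was not tested, was well above background on 2 arrays, with levels of -8.09 in CD 1, -4.66 in CD 2, -5.51 in HFD 1 and -5.74 in HFD 2. A second probe, also on 2 arrays, gave -6.44, -4.92, -5.66 and -7.24. The log2 difference between the diets was 0.75 for the first probe and -0.77 for the second.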
